A study of Mus musculus with 4 samples.

Results

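The genes described here were 10 genes known as markers of hepatic stellate cells and fibroblasts and as parts of the matrix those cells make: Col1a1, Col1a2, Col3a1, Dcn, Lrat, Des, Timp1, Tagln, Acta2 and Sparc. They were chosen by name, by a rule that uses no measured value, although earlier results of these data were known at the choice. All 10 were found among the 22079 genes of the table. RNA had been sequenced from primary hepatocytes of Prom1-deficient mice (Prom1-/-, libraries KO 1 and KO 2) and of wild-type mice (libraries WT 1 and WT 2), 2 biological replicates per genotype. All mice were C57BL/6 males of 8 weeks. Cells of both genotypes were plated for 4 hours in culture medium with serum and 10 nM dexamethasone, then held overnight in medium without serum, so the controls carried the same culture treatment. The labels state neither the allele behind the deficiency nor how many mice gave a library, and they describe no step that removed other liver cells. The comparison asks how loss of Prom1 alters the transcriptome of these cultures. The 10 genes were examined as candidates for RNA of mesenchymal cells that remain in a hepatocyte preparation, and their cell source was not tested.

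Hepatic stellate cells lie between hepatocytes and the sinusoidal endothelium and store vitamin A as retinyl esters. After injury, or on culture plastic, they lose this store, gain contractile proteins and secrete fibrillar collagen, and in that state they are called myofibroblasts. Matrix outside the cell is then set by the balance between collagen synthesis, the proteases that cut it and the tissue inhibitors of those proteases. In bulk RNA, fewer cells of a type and less RNA per cell cannot be told apart.

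The deposited values were taken to be FPKM, a level scaled for transcript length and library depth. The libraries were estimated to hold 15200000 to 17500000 fragments. Prom1 stood at 0 and 0.0458 FPKM in KO 1 and KO 2, against 0.571 and 1.22 FPKM in WT 1 and WT 2, in the direction of the labels. Hepatocyte transcripts dominated every library, with the apolipoprotein gene Apoa1 at 5831 and 5733 FPKM in KO 1 and KO 2 and at 5505 and 6228 FPKM in WT 1 and WT 2. The albumin gene Alb was listed at 0 in WT 2 and at 25551 to 32670 FPKM in the other 3 libraries. Of 11 hepatocyte markers with a value, KO 1 was the highest library for 0 (27.1% of the 15152 genes above 0 anywhere). The median over these 11 of log2(FPKM + 1) minus the gene's mean was -0.25 and 0.11 in KO 1 and KO 2. In WT 1 and WT 2 this median was -0.10 and 0.20. Differences were tested with limma on log2(FPKM + 1), and a gene passed where its p, adjusted by the Benjamini-Hochberg method, was under 0.05. Of 10407 genes averaging 1 FPKM or more, 0 passed (0.0%), and 759 (7.29%) had an unadjusted p under 0.05. For a single gene, the smallest two-sided p that an exact permutation test allows with 2 libraries per genotype is 0.333.

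Promoter sequences are given for Acta2 and Timp1, because Acta2 is the classic contractile marker of stellate cell activation and Timp1 is the gene of the 10 with the largest log2 difference between genotypes. RefSeq's promoter table (GRCm38.p6, 250 bases before and 50 after the annotated start) held 7 of the 10 genes, and Tagln, Dcn and Col1a1 were not among them. Acta2 (smooth muscle alpha-actin) is transcribed from the minus strand, and its upstream sequence lies at chr19:34255374-34255623. Capitals mark its pair of CArG-like elements, the type of sequence bound by serum response factor. They start at positions -84 and -34 from the start that RefSeq annotates. In GENCODE M21 the span of Acta2 reaches 34255590, so by that annotation both elements lie inside the gene.
Acta2 upstream: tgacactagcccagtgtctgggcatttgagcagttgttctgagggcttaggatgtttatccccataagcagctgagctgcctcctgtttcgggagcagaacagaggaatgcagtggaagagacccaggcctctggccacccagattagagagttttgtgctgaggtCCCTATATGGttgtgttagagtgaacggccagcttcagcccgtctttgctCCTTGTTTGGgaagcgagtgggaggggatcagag
A CArG-like element was a CArG box in which 1 of the inner bases is not A or T, searched on both strands. It was held by 8.5% of all 32851 promoter windows of 300 bases and by 3 of the 7, those of Acta2, Lrat and Col1a2. The strict CArG consensus was in 1.63% of all windows and in 0 of the 7. Timp1 (tissue inhibitor of metalloproteinases 1) is transcribed from the plus strand, with its upstream sequence at chrX:20869916-20870165 and an AP-1-like element, TGAGTAA, starting at position 27 after the annotated start.
Timp1 upstream: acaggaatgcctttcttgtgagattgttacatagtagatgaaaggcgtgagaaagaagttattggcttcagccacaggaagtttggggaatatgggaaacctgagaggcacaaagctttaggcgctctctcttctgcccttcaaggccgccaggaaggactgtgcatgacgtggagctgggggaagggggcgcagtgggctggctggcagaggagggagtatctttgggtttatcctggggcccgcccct
Timp1 element (chrX:20870181-20870210): cggtgggtggaTGAGTAAtgcgtccaggaa
TGAGTAA was held by 2.68% of all windows and among the 7 by Timp1 alone, whereas the AP-1 consensus TGANTCA, in 7.81% of all windows, was in 0 of the 7. These matches describe letters in a window and show no binding.

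All 10 genes were low beside hepatocyte transcripts. Dcn had the highest mean over the 4 libraries (10.3 FPKM), followed by Sparc (5.08), Tagln (2.91), Timp1 (1.52), Col3a1 (0.974), Lrat (0.547), Acta2 (0.281), Col1a2 (0.217), Col1a1 (0.214) and Des (0.130). Among the 15152 genes above 0 in at least 1 library, these means ran from the percentile 17.5 for Des to 61.7 for Dcn. Of neighbours in that order, only Dcn and Sparc had ranges that did not overlap, 7.02 FPKM being the lowest value of Dcn and 6.83 FPKM the highest of Sparc. The other 8 neighbouring pairs overlapped, although Sparc exceeded Tagln, Tagln exceeded Timp1, Col3a1 exceeded Lrat and Lrat exceeded Acta2 within each of the 4 libraries. Only 4 of the 10, Dcn, Sparc, Tagln and Timp1, reached a mean of 1 FPKM. The other 6 were taken from a limma fit of all 15152 genes, in which 0 genes passed the threshold (0.0%) and 993 (6.55%) had an unadjusted p under 0.05.

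**Figure D1:**
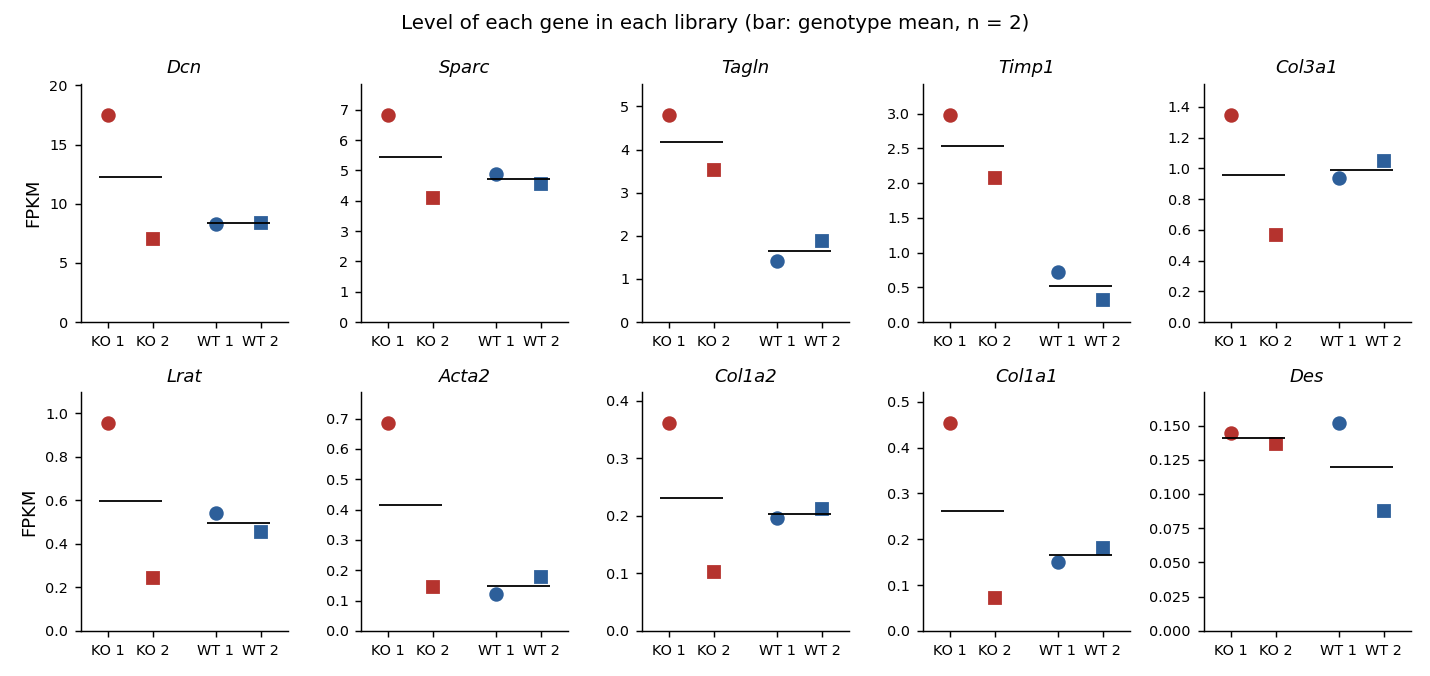
Level in FPKM (vertical axes, each from 0) of each of the 10 genes in KO 1, KO 2, WT 1 and WT 2; points are libraries and bars are genotype means of 2. Timp1 and Tagln show both KO points above both WT points, while 8 panels overlap and KO 1 stands highest in 9 of 10.

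Timp1 and Tagln were the only genes of the 10 whose libraries separated by genotype, both higher in KO. That is 2 of 10 genes, while 17.7% of the 15152 genes separated in that direction, so the count itself does not set the 10 genes apart. Both genes also had an unadjusted limma p under 0.05 with the higher level in KO, as 3.1% of the 10407 genes did, and neither passed the adjusted threshold. The remaining 8 genes had overlapping libraries, where 34.9% of the 15152 genes did not overlap, and 0 of the 10 had both KO libraries below both WT libraries (17.2% of all genes).

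Timp1 (ENSMUSG00000001131, chromosome X, 20870166 to 20874735, plus strand, mm10) encodes a secreted inhibitor of the matrix metalloproteinases that degrade collagen. It stood at 2.98 FPKM in KO 1 and 2.08 FPKM in KO 2, against 0.724 FPKM in WT 1 and 0.320 FPKM in WT 2. Both KO libraries were therefore above both WT libraries, and the mean FPKM was 4.85 times as high in KO. The log2 difference, KO minus WT, was 1.21 (SE 0.24), with a limma p of 0.00241 unadjusted and 0.511 adjusted. It stayed between 1.02 and 1.41 when each library in turn was left out. The levels rest on few molecules, about 33 and 21 fragments in KO 1 and KO 2 against about 9 and 3 in WT 1 and WT 2. Timp1 lies inside Syn1, which is on the opposite strand and stood at 0.0231 and 0.0259 FPKM in KO 1 and KO 2 against 0.0212 and 0.0504 FPKM in WT 1 and WT 2. The sources used here do not give the strand setting of the counting.

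Of the other proteases and inhibitors of the matrix, the membrane-bound collagenase gene Mmp14 was the most abundant, at 67.0 and 76.8 FPKM in KO 1 and KO 2 against 69.2 and 85.7 FPKM in WT 1 and WT 2. Adam10, a sheddase of membrane proteins, differed by 0.05 on the log2 scale, Mmp19 by 0.15 and Adam17, the sheddase of tumour necrosis factor, by 0.09, all with overlapping libraries. Among the other inhibitors, named after their values were seen, Timp3 stood at 3.82 and 1.83 FPKM in KO against 2.73 and 2.96 FPKM in WT. Timp2 stood at 0.329 and 0.0912 FPKM in KO against 0.159 and 0.141 FPKM in WT, and Timp4 was listed at 0 in all 4 libraries. Timp2 and Timp3 were thus highest in KO 1 and lowest in KO 2, while Timp1 was higher in both KO libraries. Of 27 genes of this list, 24 had a value and 9 were tested. Of these 9, 6 were higher and 3 lower in KO, and 0 passed the threshold. An unadjusted limma p under 0.05 was found for 1 (Timp1), as for 7.29% of all 10407 genes. The median log2 difference of the 9 was 0.09, against -0.00113 for all 10407 genes.

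Tagln (transgelin, ENSMUSG00000032085, chromosome 9, 45929619 to 45936058, minus strand) encodes an actin-binding protein of smooth muscle and myofibroblasts. It stood at 4.81 FPKM in KO 1 and 3.54 FPKM in KO 2, against 1.43 FPKM in WT 1 and 1.87 FPKM in WT 2, again with both KO libraries above both WT libraries. Its log2 difference was 0.96 (SE 0.20), with a limma p of 0.00285 unadjusted and 0.518 adjusted, and it ran from 0.78 to 1.14 with each library left out. About 110 and 75 fragments lay behind the KO levels and about 35 and 42 behind the WT levels. The 3′ end of Tagln overlaps Pcsk7 on the opposite strand, which stood at 11.2 and 11.3 FPKM in KO 1 and KO 2 against 11.4 and 14.3 FPKM in WT 1 and WT 2.

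Acta2 (chromosome 19), the actin isoform by which activated stellate cells are usually recognised, did not separate the genotypes. It stood at 0.684 FPKM in KO 1 and 0.145 FPKM in KO 2, against 0.120 FPKM in WT 1 and 0.176 FPKM in WT 2. KO 1 alone was high, and KO 2 lay between the WT libraries. The log2 difference of 0.27 (SE 0.20, adjusted limma p of 0.828) was -0.00395 without KO 1 and 0.55 without KO 2. Only about 21 fragments in KO 1, and 4 to 5 in each other library, lay behind these levels. Per transcript length, Acta2 was 0.142 and 0.0409 of Tagln in KO 1 and KO 2, against 0.0842 and 0.0943 in WT 1 and WT 2. Des (desmin, chromosome 1), the intermediate filament protein of muscle and of rodent stellate cells, was the lowest of the 10. It stood at 0.145 and 0.137 FPKM in KO 1 and KO 2 against 0.151 and 0.0872 FPKM in WT 1 and WT 2, about 4 to 8 fragments a library. Its log2 difference was 0.03 (SE 0.05) and -0.0135 without WT 2, and a difference in Des was not detectable at this depth.

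Contractile and cytoskeletal genes, Tagln, Acta2 and Des included, were higher in KO more often than lower. Of 20 such genes, 13 were tested, with 9 higher and 4 lower in KO and 0 past the adjusted threshold. The unadjusted limma p was under 0.05 for 3, Tagln, Vim and Cnn2, all higher in KO (3.1% of all tested genes in that direction). For 7 of the 13, Tagln included, both KO values exceeded both WT values, and for 0 both were lower, where 18.3% and 19.8% of all tested genes did so. The most abundant members were the actin-filament genes Cald1 (log2 difference 0.09), Tpm1 (0.26), Tagln2 (0.40) and Cnn3 (-0.05). Tpm1 stood at 194 and 218 FPKM in KO 1 and KO 2 against 177 and 166 FPKM in WT 1 and WT 2, and Tagln2, a transgelin expressed in many cell types, at 132 and 177.5 against 129 and 103 FPKM. Named after their values were seen, the intermediate filament gene Vim stood at 17.6 and 22.5 FPKM in KO against 11.8 and 13.3 FPKM in WT, and the calponin gene Cnn2 at 4.01 and 6.60 against 3.14 and 3.15 FPKM. The highest library was KO 2 for 9 of the 13 (26.3% of all tested genes), whereas Tagln, Timp1 and Acta2 were highest in KO 1. Also named after their values were seen, the smooth muscle genes Smtn stood at 4.50 and 3.44 FPKM in KO against 2.15 and 3.06 FPKM in WT, Myl9 at 1.20 and 3.25 against 1.23 and 0.363 FPKM, and Cnn1 at 0.0875 and 0.496 against 0.0901 and 0.0516 FPKM. Myh11 stood at 0.0760 FPKM or less, and Actg2, Lmod1 and Myocd were listed at 0 in all 4 libraries.

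The level of Timp1 and Tagln was also compared with macrophage markers, because several of these were also higher in KO. All 13 Kupffer cell markers had a value, and 6 of them had both KO libraries above both WT libraries and 1 both below, against 17.7% and 17.2% of the 15152 genes. Of the 10 tested, 7 were higher and 3 lower in KO, and 0 passed the threshold. Cd68 made up most of the summed level of all 13 markers. Without Cd68 that sum was 43.85 and 39.0 FPKM in KO 1 and KO 2 against 27.15 and 29.97 FPKM in WT 1 and WT 2. The scavenger receptor gene Marco stood at 6.28 and 5.70 FPKM in KO against 2.54 and 3.14 FPKM in WT, and the lysozyme gene Lyz2 at 16.6 and 11.9 against 6.84 and 7.86 FPKM. Other markers, named after their values were seen, did not share this: the complement genes C1qa, C1qb and C1qc had log2 differences of -0.14, -0.04 and -0.15, the Kupffer cell lectin gene Clec4f 0.02 and the receptor gene Csf1r 0.05. The part of macrophage RNA in the levels of Timp1 and Tagln was not tested.

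Lrat (ENSMUSG00000028003, chromosome 3, 82892579 to 82903973, minus strand) encodes the enzyme that esterifies retinol for storage and marks quiescent stellate cells. It stood at 0.953 FPKM in KO 1 and 0.241 FPKM in KO 2, against 0.540 FPKM in WT 1 and 0.453 FPKM in WT 2. KO 1 was the highest and KO 2 the lowest library, and the WT libraries lay between them. About 81 and 19 fragments in KO 1 and KO 2, against about 49 and 37 in WT 1 and WT 2, lay behind these levels. The log2 difference was 0.06 (SE 0.24, adjusted limma p of 0.976), and it was -0.27 without KO 1 and 0.38 without KO 2.

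The order of libraries in other stellate cell genes was counted against that of all genes. Of 22 genes of stellate cells and of retinoid handling, 18 were outside the 10 and had a value. KO 1 was highest for 10 of these 18 (27.1% of all 15152 genes), and KO 1 was highest with KO 2 lowest for 6 (7.57%). The most abundant were the lipid droplet gene Plin2, which hepatocytes also express, the matrix gene Ecm1 and the retinoic acid hydroxylase gene Cyp26b1. Plin2 was highest in WT 2, at 467.5 and 365.7 FPKM in KO 1 and KO 2 against 448.7 and 481.3 FPKM in WT 1 and WT 2. Ecm1 stood at 27.3 and 10.5 FPKM in KO 1 and KO 2 against 16.6 and 15.5 FPKM in WT 1 and WT 2, and Cyp26b1 at 23.6 and 8.75 against 18.7 and 11.8 FPKM. Named after their values were seen, the platelet-derived growth factor receptor gene Pdgfrb stood at 0.461 and 0.170 FPKM in KO against 0.219 and 0.221 FPKM in WT, and Pdgfra at 0.427 and 0.146 against 0.214 and 0.158 FPKM. Reln, which encodes the glycoprotein reelin and is expressed in stellate cells, was also highest in WT 2, with 2.79 and 2.33 FPKM in KO against 3.47 and 5.65 FPKM in WT. Gfap, a filament gene used as a stellate marker in rodents, was listed at 0 in all 4 libraries. Of the 8 tested genes of this list, Dcn included, 3 were higher and 5 lower in KO, 0 passed the threshold and the median log2 difference was -0.10.

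Col1a1, Col1a2 and Col3a1 had the same order of libraries as Lrat. Col1a1 (ENSMUSG00000001506, chromosome 11, 94936224 to 94953042, plus strand) and Col1a2 (ENSMUSG00000029661, chromosome 6, 4504814 to 4541544, plus strand) encode the alpha 1 and alpha 2 chains of type I collagen, the main collagen of scar. Col1a1 stood at 0.453 FPKM in KO 1 and 0.0718 FPKM in KO 2, against 0.151 FPKM in WT 1 and 0.182 FPKM in WT 2. Col1a2 stood at 0.361 FPKM in KO 1 and 0.102 FPKM in KO 2, against 0.196 FPKM in WT 1 and 0.211 FPKM in WT 2. KO 1 was the highest and KO 2 the lowest library for both chains. Col3a1 (ENSMUSG00000026043, chromosome 1, 45311538 to 45349706, plus strand), the only chain of type III collagen, which forms mixed fibrils with type I, stood at 1.35 FPKM in KO 1 and 0.565 FPKM in KO 2, against 0.935 FPKM in WT 1 and 1.05 FPKM in WT 2. It too was highest in KO 1 and lowest in KO 2.

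By limma the collagens did not differ between the genotypes beyond the spread of the libraries. The log2 difference was 0.10 (SE 0.16) for Col1a1, 0.02 (SE 0.12) for Col1a2 and -0.05 (SE 0.23) for Col3a1, with adjusted p of 0.914, 0.979 and 0.975. Without KO 1 it was -0.12 for Col1a1 and -0.13 for Col1a2, and without KO 2 it was 0.24 for Col3a1, so that 1 KO library decided each sign. The SD of the KO libraries was 0.269 FPKM about a mean of 0.262 FPKM for Col1a1, against an SD of 0.0221 about 0.166 FPKM in WT (n = 2 each). About 43 and 6 fragments in KO 1 and KO 2 against about 15 and 17 in WT 1 and WT 2 lay behind Col1a1, and about 119 and 46 against 88 and 90 behind Col3a1.

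The proportions of the collagen chains were set side by side within each library. Per transcript length, Col1a1 was 1.26 and 0.705 times Col1a2 in KO 1 and KO 2, against 0.769 and 0.860 times in WT 1 and WT 2. Col3a1 was 3.74 and 5.55 times Col1a2 in KO 1 and KO 2, against 4.78 and 4.96 times in WT 1 and WT 2. Type III collagen RNA thus exceeded that of either chain of type I in each of the 4 libraries, and KO 1 was the library in which Col1a1 exceeded Col1a2. These ratios have no replicate check within a library.

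**Figure D2:**
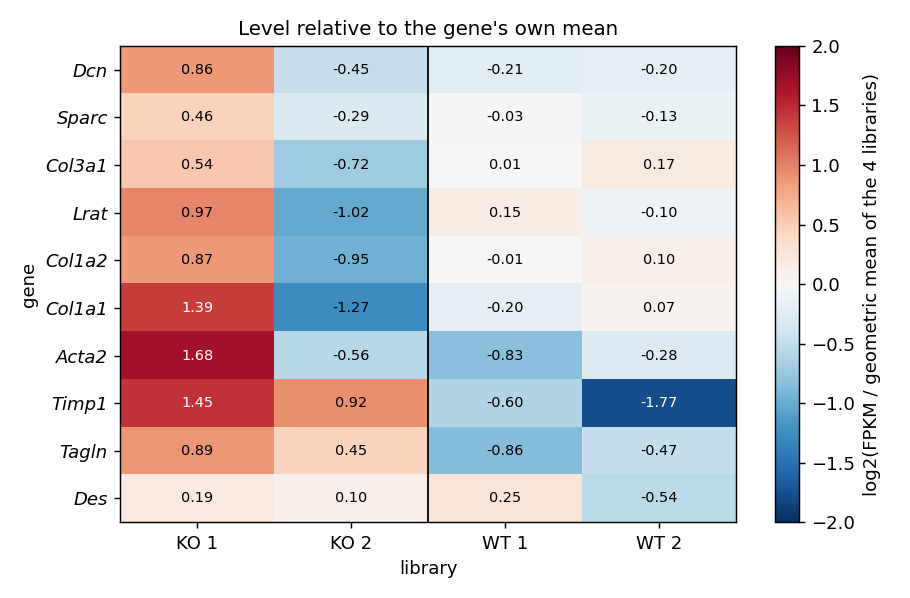
Log2 of FPKM over the geometric mean of the 4 libraries (colour and printed number) for each of the 10 genes (rows) in each library (columns, KO left of the line). Dcn, Sparc, Col3a1, Lrat, Col1a2 and Col1a1 are highest in KO 1 and lowest in KO 2, while Timp1 and Tagln are positive in both KO libraries and negative in both WT libraries.

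KO 1 was highest with KO 2 lowest for 0 of the 7 other fibrillar collagen genes that had a value. That order was held by 7.57% of all 15152 genes, so a count of 0 does not set these 7 apart. Col5a3 stood at 0.707 and 1.22 FPKM in KO against 1.38 and 1.03 FPKM in WT and was the only one of 11 with a mean of at least 1 FPKM. Col11a2 stood at 0.690 and 0.414 FPKM in KO against 1.16 and 1.45 FPKM in WT, both KO libraries being lower (log2 difference -0.57, adjusted limma p of 0.755). Col27a1 stood at 0.698 and 0.741 FPKM in KO against 0.577 and 0.606 FPKM in WT, and Col11a1 was listed at 0. Of 25 collagen folding and crosslinking genes with a value, 12 averaged 1 FPKM or more. P4hb, the protein disulphide isomerase subunit of prolyl 4-hydroxylase, stood at 402 and 426 FPKM in KO against 424 and 429 FPKM in WT. Bmp1, the procollagen C-proteinase, differed by 0.13 on the log2 scale, the prolyl hydroxylase gene P4ha2 by -0.17 and the lysyl hydroxylase gene Plod3 by 0.05. Of 12 tested genes of that list 6 were higher and 6 lower in KO, 0 passed, and the median log2 difference was 0.01. Basement membrane genes included Col18a1 at 155 and 218 FPKM in KO against 171 and 185 FPKM in WT, Nid1 (93.5 and 80.9 against 74.2 and 70.7 FPKM), Agrn (68.0 and 66.5 against 66.0 and 72.7 FPKM) and Col4a1 (29.3 and 28.0 against 33.6 and 40.2 FPKM). Of 9 tested genes in the basement membrane list 7 were higher and 2 lower in KO, 0 passed, and the median log2 difference was 0.06. KO 1 was highest with KO 2 lowest for 5 of the 18 basement membrane genes with a value (7.57% of all 15152 genes). The same order held for 2 of the 25 collagen folding and crosslinking genes.

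Dcn (decorin, ENSMUSG00000019929, chromosome 10, 97479609 to 97518143, plus strand) encodes a small proteoglycan that binds collagen fibrils and transforming growth factor beta. It stood at 17.5 FPKM in KO 1 and 7.02 FPKM in KO 2, against 8.31 FPKM in WT 1 and 8.39 FPKM in WT 2, so that KO 1 was high and KO 2 slightly below the closely matched WT libraries. About 448 and 166 fragments in KO 1 and KO 2 and about 227 and 209 in WT 1 and WT 2 make it the best measured of the 10. Its log2 difference was 0.38 (SE 0.37, adjusted limma p of 0.830), -0.22 without KO 1 and 0.99 without KO 2. Sparc (ENSMUSG00000018593, chromosome 11, 55394500 to 55423183, minus strand), a collagen-binding glycoprotein also made by endothelium, stood at 6.83 FPKM in KO 1 and 4.08 FPKM in KO 2, against 4.87 FPKM in WT 1 and 4.55 FPKM in WT 2. KO 1 was again highest and KO 2 lowest, with a log2 difference of 0.14 (SE 0.22, adjusted limma p of 0.916) that was -0.17 without KO 1.

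Most RNA of proteoglycans and matricellular proteins came from genes that hepatocytes express. Vtn (vitronectin) stood at 618 and 855 FPKM in KO against 697 and 969 FPKM in WT, and Fn1 (fibronectin) at 137 and 219 FPKM against 214 and 417 FPKM. The matricellular genes Ccn1, at 254 and 347 FPKM in KO against 197 and 273 FPKM in WT, and Ccn2, at 92.1 and 127 FPKM against 61.3 and 112 FPKM, also had overlapping libraries. Among genes named after their values were seen, Thbs1, which encodes an activator of latent transforming growth factor beta, stood at 5.21 and 8.59 FPKM in KO against 2.23 and 3.95 FPKM in WT (log2 difference 0.95, adjusted limma p of 0.586). The proteoglycan gene Bgn stood at 4.25 and 2.61 FPKM in KO against 2.64 and 2.12 FPKM in WT. Of 11 tested genes, Dcn and Sparc included, 7 were higher and 4 lower in KO, 0 passed, and the median log2 difference was 0.14.

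**Figure D3:**
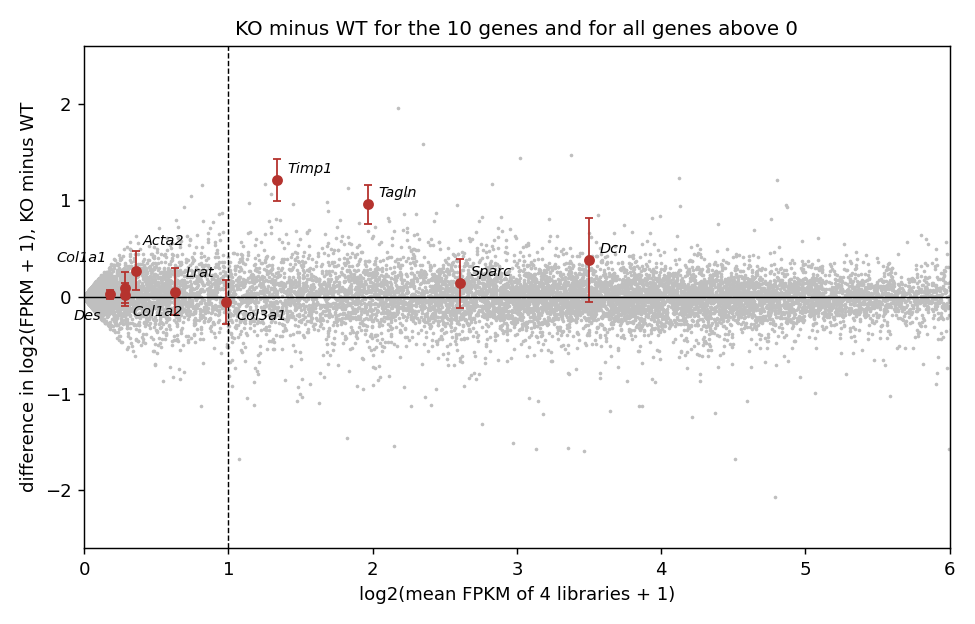
Difference in log2(FPKM + 1), KO minus WT (vertical axis), against log2(mean FPKM + 1) (horizontal axis) for the 10 genes (red, with SE from the limma model of all 15152 genes) and all other genes (grey); 1164 genes lie outside the axes, and the dashed line marks a mean of 1 FPKM. Timp1 and Tagln lie highest of the 10, and 6 of the 10 lie left of the line.

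The order of libraries, rather than the genotype, was what most of the 10 genes had in common. KO 1 was the highest library for 9 of the 10, all but Des, while it was highest for 27.1% of the 15152 genes. For 6 of the 10, Dcn, Sparc, Col3a1, Lrat, Col1a2 and Col1a1, KO 1 was highest and KO 2 lowest, against 7.57% of all genes. The ratio of KO 1 to KO 2 ran from 1.06 for Des to 6.30 for Col1a1 and was at least 1.5 for 7 genes (10.3% of all genes), while its median over the genes tested was 0.985. The ratio of WT 1 to WT 2 ran from 0.681 for Acta2 to 2.26 for Timp1, and its median over the genes tested was 1.0. The summed level of those 6 genes was 27.5 and 12.1 FPKM in KO 1 and KO 2 against 15.0 and 14.8 FPKM in WT 1 and WT 2. That KO 1 stood high in stellate markers was known before these genes were chosen, so the counts describe it and do not test it.

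**Figure D4:**
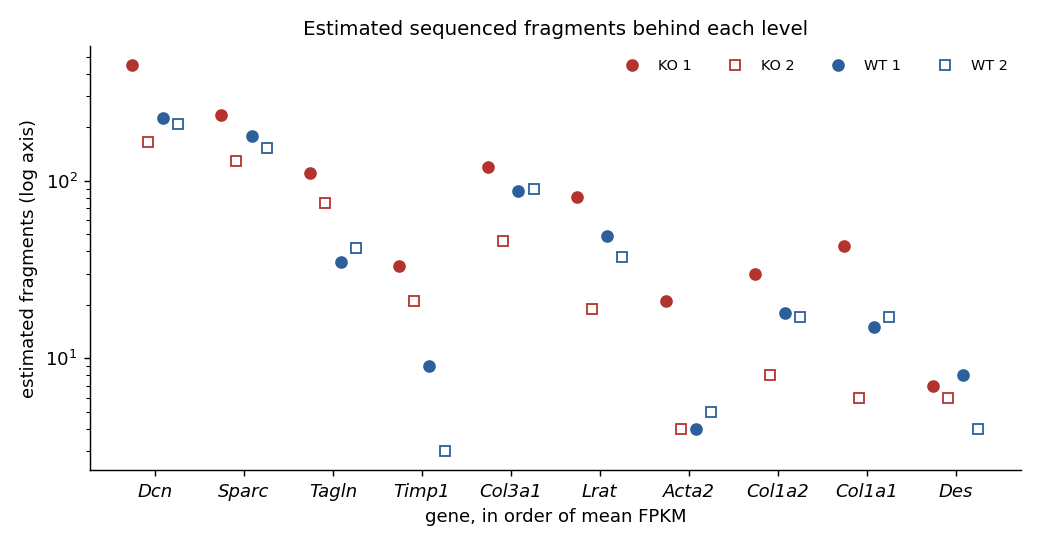
Estimated number of sequenced fragments (log axis) behind the level of each gene in each library, at an assumed fragment length of 200 bases, with genes in order of mean FPKM. Values run from 3 fragments for Timp1 in WT 2 to 448 for Dcn in KO 1.

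With KO 1 left out, KO 2 lay above both WT libraries for 2 of the 10 genes, Timp1 and Tagln (35.7% of all genes), and below both for 6 (30.9%). With KO 2 left out, KO 1 lay above both WT libraries for 9 (35.3%). The median log2 difference over all 10 genes was 0.12, against 0.0015 over all 15152 genes. It was -0.12 without KO 1 and 0.42 without KO 2. The levels of Timp1 and Tagln were also set relative to Dcn, the most abundant of the 10. Timp1 was 0.170 and 0.296 of Dcn in KO 1 and KO 2, against 0.0871 and 0.0381 in WT 1 and WT 2. Tagln was 0.274 and 0.504 of Dcn in KO 1 and KO 2, against 0.172 and 0.223 in WT 1 and WT 2. Both ratios were above those of WT in each KO library and higher in KO 2 than in KO 1. The order of the KO libraries was not particular to them, as Dcn itself stood at 17.5 and 7.02 FPKM there. Sparc was 0.390 and 0.581 of Dcn in KO 1 and KO 2, against 0.585 and 0.543 in WT 1 and WT 2. Col3a1 was 0.0770 and 0.0805 of Dcn in KO 1 and KO 2, against 0.1125 and 0.125 in WT 1 and WT 2. Lrat, by contrast, was 0.0544 and 0.0343 of Dcn in KO 1 and KO 2, against 0.0650 and 0.0541 in WT 1 and WT 2. Acta2 was also lower in KO 2, at 0.0390 and 0.0206 in KO against 0.0144 and 0.0210 in WT.

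Markers of sinusoidal endothelium, the cells that line the vessels beside the stellate cells, were mostly highest in KO 1. All 14 markers had a value, KO 1 was highest for 12 of them (27.1% of all 15152 genes), and KO 1 was highest with KO 2 lowest for 7 (7.57%). Pecam1 and Cdh5, named after their values were seen, were highest in WT 2. The summed level of all 14 markers was 90.7 and 47.2 FPKM in KO 1 and KO 2 against 64.2 and 62.0 FPKM in WT 1 and WT 2. The scavenger receptor gene Stab1 stood at 19.0 and 9.87 FPKM in KO against 12.7 and 13.2 FPKM in WT. Among 9 cholangiocyte markers, KO 1 was highest for 3, and KO 1 was highest with KO 2 lowest for 2, and Krt19 stood at 0.288 FPKM or less. Of 14 markers of portal fibroblasts and mesothelium, only Entpd2 reached a mean of 1 FPKM, and Clec3b, Thy1 and Upk3b were listed at 0, which, as for Alb in WT 2, need not mean that the RNA was absent. The part of non-hepatocyte cells in the levels of the 10 genes was not tested. The cell types other than hepatocytes cannot be counted in these libraries.

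**Figure D5:**
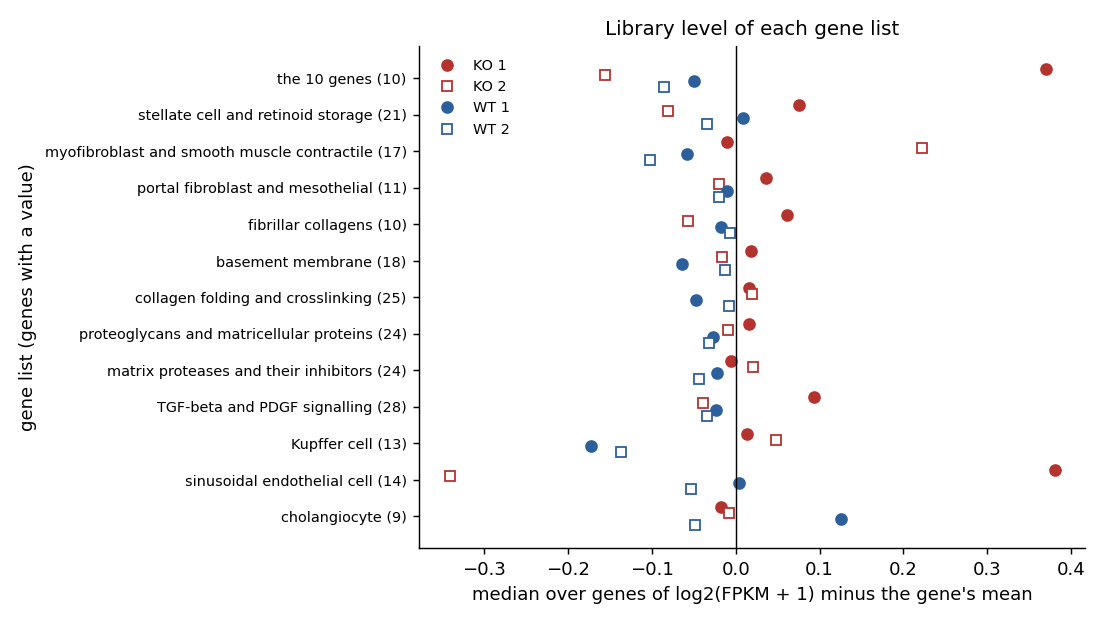
Median over genes of log2(FPKM + 1) minus the gene's mean over the 4 libraries (horizontal axis) for the 10 genes and 12 other gene lists (rows, with the number of genes that had a value). KO 1 stands highest and KO 2 lowest for the 10 genes and for sinusoidal endothelial markers. The stellate cell, fibrillar collagen, and TGF-beta and PDGF signalling lists have the same order over a narrower range. KO 2 stands highest for the contractile, Kupffer cell, collagen folding and matrix protease lists. Both KO libraries stand above both WT libraries for those lists and for proteoglycans and matricellular proteins. Several lists hold some of the 10 genes, some lists share other genes, and the hepatocyte list is not plotted.

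Genes of transforming growth factor beta and platelet-derived growth factor signalling, which drive stellate cell activation, gave no common direction between genotypes. Of 28 genes, 17 were tested, with 10 higher and 7 lower in KO, 0 past the threshold and a median log2 difference of 0.06. KO 1 was highest for 17 of the 28 (27.1% of all 15152 genes), and it was highest with KO 2 lowest for 8 (7.57%). Pdgfra and Pdgfrb are in this list and in the stellate cell list, and they are counted with this order in both. The corepressor gene Tgif1 differed by 0.10, the receptor gene Tgfbr2 by 0.14 and the ligand gene Pdgfa by 0.03. Named after its values were seen, the inhibitory signalling gene Smad7 stood at 4.83 and 3.96 FPKM in KO against 3.08 and 2.45 FPKM in WT.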

How the data were processed

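Libraries of 4 primary hepatocyte cultures were made with a TruSeq kit for stranded mRNA, as the labels' protocols state. Cufflinks, Cuffdiff 2.2.1, STAR 2.5.0 and the build mm10 appear, with no role or order, in the submitters' processing notes. The authors deposited 1 value per gene and library, whose unit was read as FPKM from these tools and from the values, since no column states it. FPKM is already divided by length and depth, so no count model was used. Of 22079 identifiers 21984 matched GENCODE M21 (GRCm38, the build mm10), and 0 other per-sample columns were present. Depth was estimated from the lowest steps of 3057 genes with 1 annotated transcript of at least 1000 bases, at an assumed fragment length of 200 bases. A step was FPKM times the transcript length in kilobases less the fragment length. The median step within a preset window of 0.03 to 0.09 was taken as 1 fragment. Between 117 and 148 genes per library fell in that window. Because the window was set beforehand, it limits the range in which the estimate can fall. Estimated fragments of a gene use its longest principal transcript and are approximate.

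KO was compared with WT by limma 3.58.1 (R 4.3.3; lmFit, eBayes with trend, two-sided, genotype only) on log2(FPKM + 1), a scale that understates changes of low genes. Genes averaging 1 FPKM or more were fitted, and genes below it were read from a fit of all genes above 0 in at least 1 library. The procedure was tested on simulated data. The 10 genes and the lists were chosen with earlier results of these data known. Named genes were the 10 and the up to 4 most abundant of each list; others are said to be named after their values were seen. A planned search for genes of similar profile is not reported, because its median profile over Dcn, Sparc, Tagln and Timp1 matched none of them. The numbers 1 and 2 of the libraries are not stated to pair animals. A limma p-value sets the genotype difference against the spread between libraries of a genotype, known here only from these 4 libraries. That spread is moderated toward a trend over all genes fitted. The values of 1 gene that the rule would name are not reported here.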

Additional observations from a re-analysis of the deposited data

How the results depend on the processing

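With 2 libraries per genotype and 3 to 448 estimated fragments behind a level, differences of the lower genes could not be resolved. Timp1 and Tagln kept their direction under all 11 alternatives run for each, from 0.45 to 2.14 and from 0.46 to 1.28 on the log2 scale, with lowest adjusted limma p of 0.175 and 0.202. Outside the settings that left out a library, 86 of 86 values were judged the same. Differences of single genes kept their direction and their side of the threshold. The median over the 10 genes moved by less than its spread between libraries of a genotype (0.264). The count of genes past the threshold stayed at 0. With each library left out, the difference ran from -0.22 to 0.99 for Dcn, -0.17 to 0.46 for Sparc, -0.35 to 0.24 for Col3a1, -0.27 to 0.38 for Lrat, -0.00395 to 0.55 for Acta2, -0.13 to 0.18 for Col1a2, -0.12 to 0.32 for Col1a1 and -0.0135 to 0.0693 for Des. The sign turned without KO 1 for Dcn, Sparc, Lrat, Acta2, Col1a2 and Col1a1, without KO 2 for Col3a1 and without WT 2 for Des; these settings hold 1 library in a genotype, assumed to vary like the others. The median over the 10 genes ran from -0.12 to 0.42, the count of genes past the threshold from 0 to 8 (5 without KO 1, 8 without WT 1), none of them among the 10, and the count of the 10 with every KO library above every WT library, an alternative chosen after seeing the data, from 2 to 9. The cause was not tested.

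Replicate numbers do not pair the samples by the labels; the deviations of same-numbered libraries correlated at 0.151 over the genes tested. With the replicate number as a block, the adjusted p was 0.175 for Timp1 and 0.242 for Tagln, and 0 genes passed. Col3a1, Lrat, Acta2, Col1a2, Col1a1 and Des fall under both filters, and Tagln and Timp1 under the filter at a mean of 5 FPKM, so those filters gave no value for them or for the median over the 10.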

Other observations

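Of 25 collagen folding and crosslinking genes with a value, 11 had both KO libraries above both WT libraries and 2 both below. Of 22 proteoglycan and matricellular genes outside the 10 with a value, 7 had both above and 1 both below. The following genes of low level, from these lists and the signalling list, were picked after their values were seen. Fkbp10, a prolyl isomerase of collagen folding, stood at 0.360 and 0.256 FPKM in KO 1 and KO 2, against 0.0812 FPKM in WT 1 and a listed 0 in WT 2 (adjusted limma p of 0.755). Sparcl1, a relative of Sparc, stood at 0.345 and 0.276 FPKM in KO against 0.118 and 0.143 FPKM in WT. Ltbp3, which encodes a binding protein of latent transforming growth factor beta, stood at 0.210 and 0.218 FPKM in KO against 0.0813 and 0.0808 FPKM in WT. Tnc, the matricellular gene of tenascin C, stood at 0.413 and 0.285 FPKM in KO against 0.118 and 0.190 FPKM in WT. In the other direction, the crosslinking enzyme gene Lox stood at 0.101 and 0.150 FPKM in KO against 0.357 and 1.07 FPKM in WT. None of these 5 passed the adjusted threshold, in a fit of genes of which 17.7% had both KO values above both WT values and 17.2% both below.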
